A study of Homo sapiens with 12 samples.

Results

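The regulatory regions of 8 myeloid transcription factor genes, SPI1, RUNX1, GFI1, IRF8, KLF4, ZEB2, IKZF1 and MYB, were followed by ATAC-seq. The KO-52 cells used were transduced with different isoforms of C/EBPα or with an empty vector. In this assay the Tn5 transposase cuts open chromatin, and a pile of fragment tags, called a peak, marks an accessible stretch of DNA. A region belonged to a gene when it lay over the GENCODE gene body or within 50 kb of either end of it. Of 355515 accessible regions found in at least 1 condition, 493 met this rule. The windows of SPI1, RUNX1, GFI1 and IRF8 held 27, 207, 29 and 31 regions. Those of KLF4, ZEB2, IKZF1 and MYB held 18, 65, 68 and 48. RUNX1 takes so many because long transcripts stretch its annotated body to a window of 1316.9 kb, against 105.6 to 256.7 kb for the other 7 genes. Only 95 of its 207 regions lay within 50 kb of its canonical transcript. At the edges of the 8 windows, the outermost 5 kb held 12 regions and the next 5 kb beyond held 10.

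KO-52 (written KO52 in the labels) is an acute myeloid leukaemia cell line with mutations in both alleles of CEBPA, the gene of C/EBPα, and every condition shares this background. The cells were transduced with the full-length isoform p42, with the N-terminally truncated isoform p30, or with an empty vector (EV). Each of these was kept in DMSO or treated with tunicamycin (Tm) at 2 µg/mL for 8 h, an inhibitor of protein glycosylation that stresses the endoplasmic reticulum. According to the paper, mutations in both alleles typically leave p30 as the only isoform with an intact DNA-binding domain. EV cells are therefore not taken as cells without p30, and p42 cells may also hold the product of the mutant gene. There were 2 replicates in each of the 6 conditions, 12 libraries in all, of 50000 nuclei each. According to the methods the p42 and p30 plasmids encoded fusions to ERT2, the hormone-binding part of the oestrogen receptor, and transduced cells were sorted for GFP, so each condition is a sorted pool of 1 cell line. For cells with such fusions, the culture methods describe hydroxytamoxifen treatment before the experiment, empty vector controls included. Its purpose was to bring the fusions into the nucleus. The ATAC-seq methods do not mention this treatment separately.

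The lists used here were called by the authors on the pooled replicates, 1 list per condition. None of the values below therefore has a replicate error, and no difference between conditions was tested. The lists held from 187704 peaks (EV in DMSO) to 254239 peaks (p42 in DMSO). The estimated depth ran from 22250000 tags in EV cells in DMSO to 29980000 in p42 cells in DMSO, with 26530000 in p30 cells in DMSO. After Tm it was 25130000 in EV, 23080000 in p30 and 25440000 in p42 cells. A deeper list passes weaker regions over the same threshold, and the lack of a peak does not show that a region is closed. As a check of the cell type, the promoters of all 7 blood marker genes searched (PTPRC, CD33, CD34, KIT, MPO, VAV1 and CSF3R) had a peak in every list. Among genes that mark other cells, GATA1, ALB and CDH5 had no promoter peak in any list, whereas CD3E, EPCAM and COL1A1 had one in all 6, so a promoter peak alone does not mark a cell type here.

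The 8 genes encode factors that act with C/EBPα in the making of blood cells. SPI1 encodes PU.1, an ETS factor without which neither monocytes nor granulocytes form, and RUNX1 encodes the DNA-binding part of core-binding factor, which sets up the blood programme. IRF8, KLF4 and ZEB2 act on the side of monocytes and dendritic cells, GFI1 is a zinc finger repressor that favours granulocytes, IKZF1 encodes Ikaros, best known in lymphoid cells, and MYB keeps progenitors dividing. Such genes are typically controlled by a promoter and a number of distant enhancers, at which C/EBP, PU.1, RUNX and AP-1 factors can bind side by side.

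Short consensus sequences were searched on both strands within 100 bp of each region's summit: TTGCNNAA for C/EBP, TGATGCAA for the C/EBP:ATF4 composite, GAGGAAGT for PU.1, TGTGGTT for RUNX, TGANTCA for AP-1, GAAANNGAA for IRF and AGATAA for GATA, where N is any base. Over all 355515 regions, 13.1% held the C/EBP consensus, 1.25% the C/EBP:ATF4 composite, 6.86% PU.1, 9.28% RUNX, 12.9% AP-1, 7.6% IRF and 11.3% GATA. A match to such a short string describes the sequence and is no proof of a bound site. The C/EBP and C/EBP:ATF4 strings cannot match the same 8 bases in the same orientation. The sequences that follow are 201 bp of hg38 around the summits of some of the regions described. Regions with a C/EBP or C/EBP:ATF4 match were preferred, so the sequences shown do not tell how often such matches occur. They are on the plus strand, in lower case, with consensus matches in capitals. Distances in kb are from the 5′ end of the canonical transcript, positive in the direction of transcription.

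The first is a region downstream of IRF8 that ranked high in every list and holds both a C/EBP match (TTGAGCAA, a match on the minus strand) and a C/EBP:ATF4 match (TTGCATCA, likewise on the minus strand).
IRF8 at +29.5 kb, chr16:85928484-85928684: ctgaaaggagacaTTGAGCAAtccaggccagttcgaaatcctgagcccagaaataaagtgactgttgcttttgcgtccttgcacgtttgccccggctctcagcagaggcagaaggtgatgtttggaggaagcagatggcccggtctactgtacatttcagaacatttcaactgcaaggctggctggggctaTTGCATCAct
Of the 3 regions of the SPI1 window shown, that at −16.2 kb holds a C/EBP match (TTGCAAAA) and was open in every list, that at −9.7 kb holds a PU.1 match (ACTTCCTC, on the minus strand) and ranked highest in the p42 lists, and that at +60.9 kb had a peak in the p42 lists only and holds none of the 7 strings.
SPI1 at −16.2 kb, chr11:47394766-47394966: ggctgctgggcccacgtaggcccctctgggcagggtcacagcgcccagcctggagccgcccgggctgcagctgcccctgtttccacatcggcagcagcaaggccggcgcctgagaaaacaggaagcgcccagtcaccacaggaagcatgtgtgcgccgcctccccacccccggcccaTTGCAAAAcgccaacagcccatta
SPI1 at −9.7 kb, chr11:47388233-47388433: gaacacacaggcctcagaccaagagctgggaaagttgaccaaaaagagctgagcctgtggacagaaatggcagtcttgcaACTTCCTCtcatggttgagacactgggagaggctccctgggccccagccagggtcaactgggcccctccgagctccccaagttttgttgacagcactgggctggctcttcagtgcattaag
SPI1 at +60.9 kb, chr11:47317554-47317754: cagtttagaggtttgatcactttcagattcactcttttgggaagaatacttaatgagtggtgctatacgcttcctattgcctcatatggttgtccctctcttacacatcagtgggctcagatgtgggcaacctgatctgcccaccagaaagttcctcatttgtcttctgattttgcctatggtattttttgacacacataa
The next 2, near RUNX1 and IKZF1, each hold an AP-1 match and had peaks in the 4 EV and p30 lists and in neither p42 list.
RUNX1 at −8.3 kb, chr21:35057462-35057662: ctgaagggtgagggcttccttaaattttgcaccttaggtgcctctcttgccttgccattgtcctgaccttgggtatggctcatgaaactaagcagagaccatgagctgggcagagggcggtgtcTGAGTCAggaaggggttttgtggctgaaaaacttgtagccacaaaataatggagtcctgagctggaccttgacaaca
IKZF1 at −39.6 kb, chr7:50264963-50265163: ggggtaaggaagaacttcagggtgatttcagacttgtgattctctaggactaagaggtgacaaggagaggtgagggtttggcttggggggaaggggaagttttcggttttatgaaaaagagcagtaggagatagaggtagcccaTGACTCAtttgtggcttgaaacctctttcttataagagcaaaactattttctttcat
Of the last 3, the ZEB2 region at +114.6 kb holds RUNX, C/EBP and GATA matches, the ZEB2 region at +163.7 kb a C/EBP match (TTGTGCAA, on the minus strand), and the MYB region at −21.6 kb an IRF match.
ZEB2 at +114.6 kb, chr2:144405419-144405619: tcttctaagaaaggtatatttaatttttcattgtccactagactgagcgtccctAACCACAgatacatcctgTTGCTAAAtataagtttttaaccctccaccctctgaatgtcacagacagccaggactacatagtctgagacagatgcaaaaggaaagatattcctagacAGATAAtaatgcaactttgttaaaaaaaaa
ZEB2 at +163.7 kb, chr2:144356347-144356547: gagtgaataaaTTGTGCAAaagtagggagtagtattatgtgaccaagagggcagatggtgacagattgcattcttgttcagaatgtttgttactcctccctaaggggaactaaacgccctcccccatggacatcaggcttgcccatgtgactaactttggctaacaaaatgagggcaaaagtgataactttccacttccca
MYB at −21.6 kb, chr6:135159616-135159816: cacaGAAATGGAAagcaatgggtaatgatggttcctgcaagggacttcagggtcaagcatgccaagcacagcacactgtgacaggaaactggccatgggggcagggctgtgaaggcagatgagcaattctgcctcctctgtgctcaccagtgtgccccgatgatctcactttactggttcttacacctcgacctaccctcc

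The promoters of 7 of the 8 genes, taken as 1000 bp on either side of the canonical 5′ end, were accessible in all 6 conditions. The exception was IRF8, which is described with its window. To compare lists of unequal depth, each peak was placed by its percentile of −log10 q within its own list, where 100 is the most significant peak. The SPI1 promoter region (chr11:47377929-47378996) was at percentile 95.4 in EV cells in DMSO, 94.1 in EV cells with Tm, 90.1 and 92.4 in p30 cells in DMSO and Tm, and 91.5 and 84.9 in p42 cells. The RUNX1 promoter region (chr21:35048783-35049492) was at 89.1 and 91.2 in EV, 86.6 and 91.3 in p30, and 83.0 and 87.4 in p42 cells, in the same order of DMSO and Tm. The GFI1 promoter region (chr1:92486818-92487180) was at 85.3 and 86.1 in EV, 83.4 and 84.8 in p30, and 80.2 and 77.5 in p42 cells. At these regions of RUNX1 and GFI1, the p42 lists gave the lowest places in either treatment. For SPI1 the p42 place in DMSO lay between those of p30 and EV cells. Another region in the GFI1 promoter (chr1:92485391-92486701) was at 60.5 and 69.8 in EV, 63.9 and 74.3 in p30, and 73.7 and 67.3 in p42 cells. There p42 cells were the highest in DMSO and the lowest with Tm. Near other GFI1 5′ ends, both p42 places were above all EV and p30 places at +3.0 kb and below them at +1.8 kb.

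The other 4 promoters ranked below these 3 in each EV and p30 list, with no such separation in the p42 lists. The KLF4 promoter region (chr9:107489568-107490455) was at percentile 72.4 and 80.7 in EV, 77.2 and 74.8 in p30, and 82.0 and 81.0 in p42 cells. The ZEB2 promoter region (chr2:144520057-144520318) was at 68.5 and 54.6 in EV, 76.2 and 81.3 in p30, and 79.3 and 79.8 in p42 cells. It also lies within 1000 bp of the start of ZEB2-AS1, an antisense gene, so openness there cannot be given to one of the pair. The IKZF1 promoter region (chr7:50303716-50305177) was at 63.9 and 66.1 in EV, 66.0 and 73.2 in p30, and 79.3 and 74.9 in p42 cells. The MYB promoter region (chr6:135180450-135181503) was at 74.9 and 76.8 in EV, 79.1 and 79.5 in p30, and 77.9 and 74.3 in p42 cells, the narrowest range of the 4. The p42 places were above both others for KLF4 and IKZF1 in DMSO and in Tm, and both ZEB2 places of EV cells were below those of p30 and p42 cells.

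**Figure D1:**
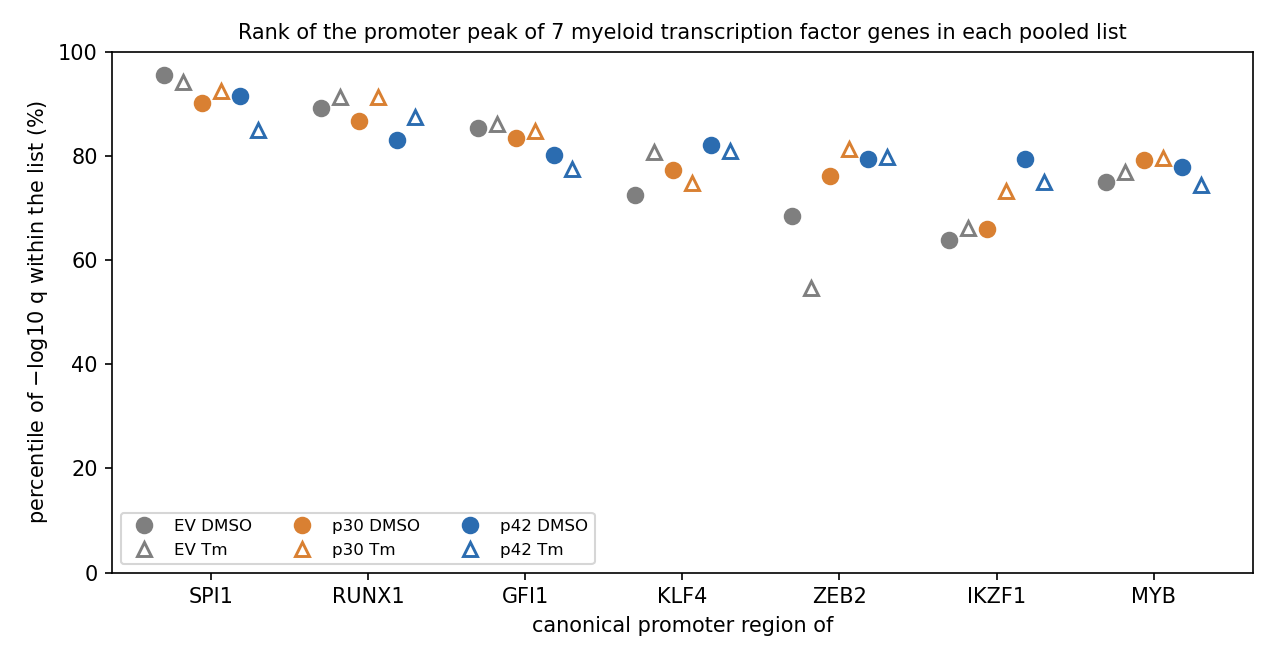
The plot gives, for 7 genes (x axis), the percentile of −log10 q within its own list (y axis, %) of the canonical promoter region, with circles for DMSO, triangles for Tm, grey for EV, orange for p30 and blue for p42. Each point is 1 pooled list without error bar: the SPI1 points lie between 84.9 and 95.4, and the widest spread is that of ZEB2, from 54.6 to 81.3.

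Percentiles by fold enrichment, the ratio of tags at the summit to the local background, gave other values. Of the 44 promoter places, 42 were lower by fold, with a median change of −26.8 points and a range from −47.1 to 4.2. At the SPI1 promoter the places by fold ran from 67.9 to 78.6. The order of the conditions was partly kept. By fold, the KLF4 place with Tm was 76.7 in EV and 75.6 in p42 cells, and the SPI1 place in DMSO was 69.5 in p42 and 72.8 in p30 cells, so that both orders given above turned. At the IKZF1 promoter the p42 places by fold were 52.9 and 45.9, against 31.9 and 30.5 in EV and 32.7 and 42.6 in p30 cells.

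RUNX1 has further transcript starts inside its body. Among its regions within 1000 bp of another 5′ end, 3 had peaks in all 6 lists, at +159.3, +160.6 and +161.1 kb. At +161.1 kb, where the region holds an AP-1 match, the places were 59.2 and 62.9 in EV, 63.9 and 59.3 in p30, and 48.7 and 63.8 in p42 cells. The place in p42 cells in DMSO was below the other 5. The canonical promoter region holds the RUNX consensus, within 100 bp of its summit, in 3 copies. MYB has another 5′ end where its antisense gene MYB-AS1 also starts. The region there, at +14.2 kb with a RUNX match, was at 90.1 to 93.4 over the 6 lists, above the canonical promoter region in each.

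IRF8 stood apart from the other 7 genes because its canonical promoter was almost without peaks within 1000 bp of the start. At +0.6 kb there was 1 peak, in EV cells in DMSO at percentile 5.2 with 5 tags at the summit. At +1.0 kb there were 2, at percentile 28.3 with 7 tags in p30 cells in DMSO and at 0.2 with 4 tags in p42 cells in DMSO. No Tm list had a peak in the IRF8 promoter. Just outside it, at −1.6 kb (chr16:85897480-85897630), a region had peaks in all 6 lists, at 56.0 and 49.9 in EV, 59.7 and 61.2 in p30, and 33.9 and 51.7 in p42 cells. Near another 5′ end of IRF8, the region at +9.5 kb, with PU.1 and AP-1 matches, had peaks in all 6 lists, at 57.1 to 82.1. The region at +14.9 kb, also near another 5′ end, had peaks in all 6 lists and ranked lower in each. Some regions farther away ranked higher than that at −1.6 kb. The regions at −1.6, −10.3, +17.5, +37.0 and +44.7 kb were added after their values were seen. The region at +29.5 kb (chr16:85928381-85928877), whose sequence with the C/EBP and C/EBP:ATF4 matches is given above, was at percentile 85.7 and 92.2 in EV, 92.7 and 94.3 in p30, and 95.0 and 93.2 in p42 cells. It had 22 and 29 tags at the summit in EV, 29 and 31 in p30, and 39 and 34 in p42 cells. The tags are not scaled for depth, which was highest in p42 cells in DMSO and lowest in EV cells in DMSO. By fold enrichment, which was 12.4 and 14.1 in EV, 14.3 and 15.1 in p30, and 12.9 and 13.1 in p42 cells, p30 cells with Tm were the highest. The region at +17.5 kb was at 85.7 and 85.4 in EV, 78.1 and 84.7 in p30, and 90.2 and 82.2 in p42 cells. The regions at −10.3 kb, with an IRF match, and at +37.0 kb, at the start of LINC02132, were at 78.4 to 92.5 and 83.5 to 96.0 over the 6 lists.

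Of the 31 regions of the IRF8 window, 25 (80.6%) had a peak in p42 cells in DMSO, 15 (48.4%) in p30 and 16 (51.6%) in EV cells, where the shares of all common regions were 69.3, 56 and 50.4%. With Tm, 20 regions (64.5%) had one in p42 cells, 13 (41.9%) in p30 cells and 15 (48.4%) in EV cells, where those shares were 56.8, 49.4 and 52%. In DMSO, 11 regions (35.5%) had a peak in p42 and not in p30 cells, where 25% of all common regions did, and 1 (all regions 11.8%) had the reverse. With Tm these counts were 7 (22.6%, all regions 17.5%) and 0 (all regions 10.1%). With a threshold scaled to the shallowest list the DMSO counts were 10 and 2, and with equally long lists 5 and 1. All common regions were not counted under these settings. The 11 regions were mostly weak, with a median percentile of 21.0 in the p42 list and a highest one of 59.7. That highest region, at +44.7 kb (chr16:85943821-85943982), holds C/EBP and AP-1 matches and was at 59.7 and 51.7 in p42 cells, at 8.1 in EV cells with Tm, and without a peak in the other 3 lists. Peaks in both p42 lists and in no other list were found at 4 places of the window. The first of these by significance in DMSO, at −25.0 kb with a PU.1 match, was at 51.5 and 8.7.

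**Figure D2:**
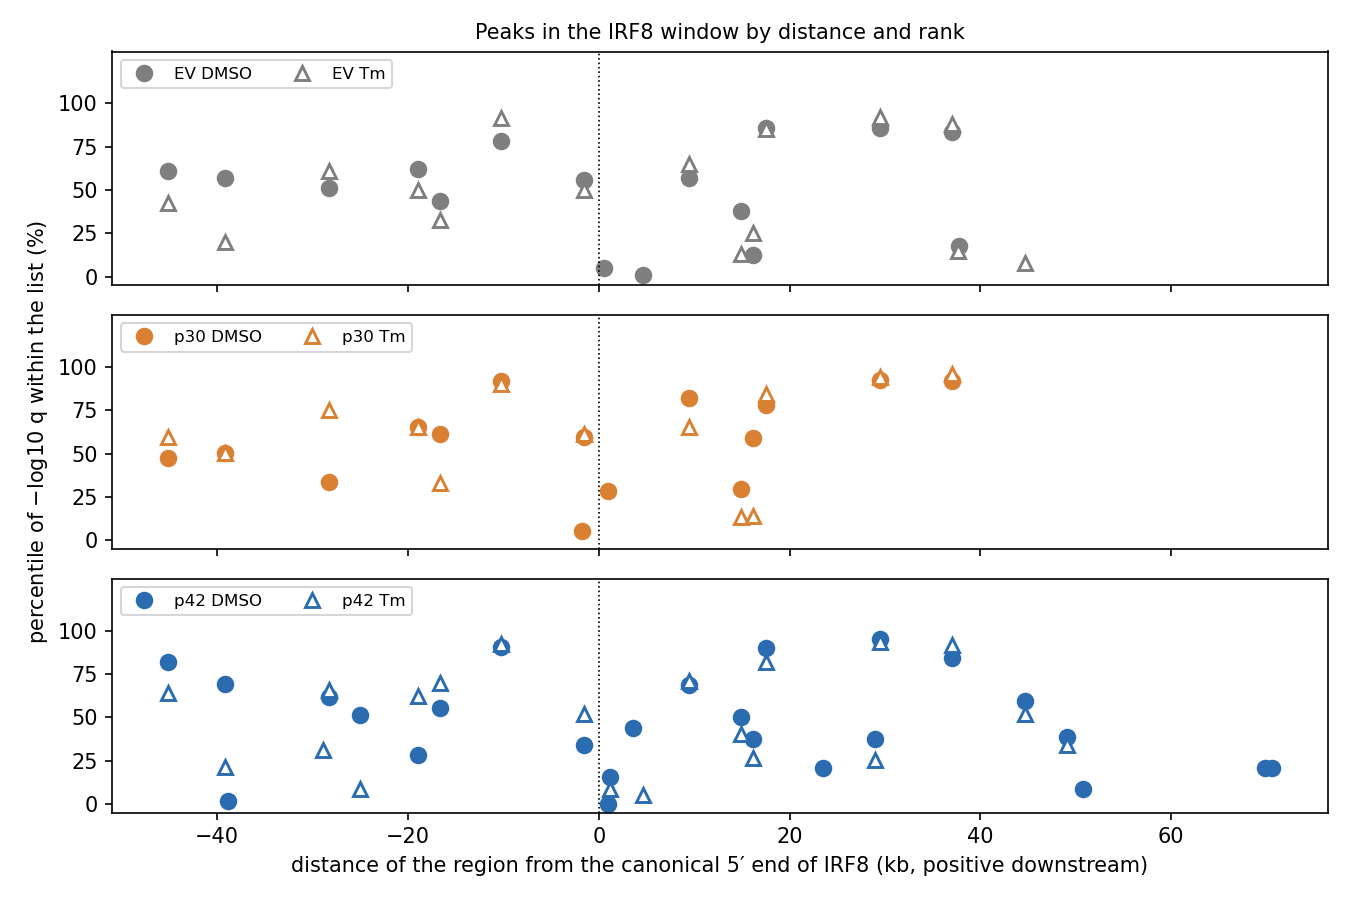
The 3 panels give EV (grey), p30 (orange) and p42 (blue) cells, with each peak of the IRF8 window at its region's distance from the canonical 5′ end (x axis, kb) and its percentile of −log10 q within its list (y axis, %), circles for DMSO and triangles for Tm. No list has a peak above percentile 28.3 in the promoter, the regions at −10.3, +17.5, +29.5 and +37.0 kb are high in all panels, and the p42 panel holds 25 circles against 15 in the p30 panel.

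SPI1 had the largest share of regions that were open in every list, 15 of 27 (55.6%), against 38.3% for the 8 genes together and 32.2% for all regions. Of its 27 regions, 8 lay at promoters of other genes. Over the 8 windows, 57.6% of such regions and 35.4% of distal regions had a peak in every list. What this adds to the SPI1 share was not tested. The region at −16.2 kb (chr11:47394323-47395189), next to the start of SLC39A13-AS1, was at percentile 93.8 and 91.1 in EV, 88.9 and 90.1 in p30, and 81.3 and 87.2 in p42 cells. SPI1 has a well-known upstream regulatory element at which C/EBP, RUNX1 and PU.1 itself bind, and whether this region is that element was not examined. The tags at its summit were 42 to 46 in the 6 lists, while the fold over the local background was 9.14 in EV cells in DMSO and 5.85 in p42 cells in DMSO, the deepest list. Neither value is scaled between lists. The region at −9.7 kb (chr11:47387903-47388659) was at 6.0 and 46.8 in EV, 46.2 and 39.6 in p30, and 81.9 and 76.9 in p42 cells, with the p42 places above the other 4. The p42 places at −16.2 kb were below the other 4. The region at −9.7 kb had 35 and 25 tags in p42 cells and 10 to 14 in the other 4 lists, unscaled for depth. These 2 regions and the next, outside the rule for naming, were chosen after their values were seen. The neighbour at −11.3 kb was at 58.1 or below in the EV and p30 lists, at 14.9 in p42 cells in DMSO, and without a peak in p42 cells with Tm.

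Farther off, SPI1 had the strongest peak of the 8 genes that only p42 cells showed. At +60.9 kb (chr11:47317456-47317855), within the neighbouring gene MADD, p42 cells were at percentile 72.3 in DMSO and 78.3 with Tm, with −log10 q of 12.7 and 16.5 and 14 and 16 tags, and neither EV nor p30 cells had a peak. The region outside the promoter with the highest mean percentile, at −29.9 kb, belongs to the promoter of SLC39A13 and was at 95.6 to 98.1 in all lists. Over the 17 SPI1 regions shared by p42 and p30 cells with Tm, the median difference was 10.94 percentile points in favour of p42, and over the 16 shared in DMSO it was 0.22.

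**Figure D3:**
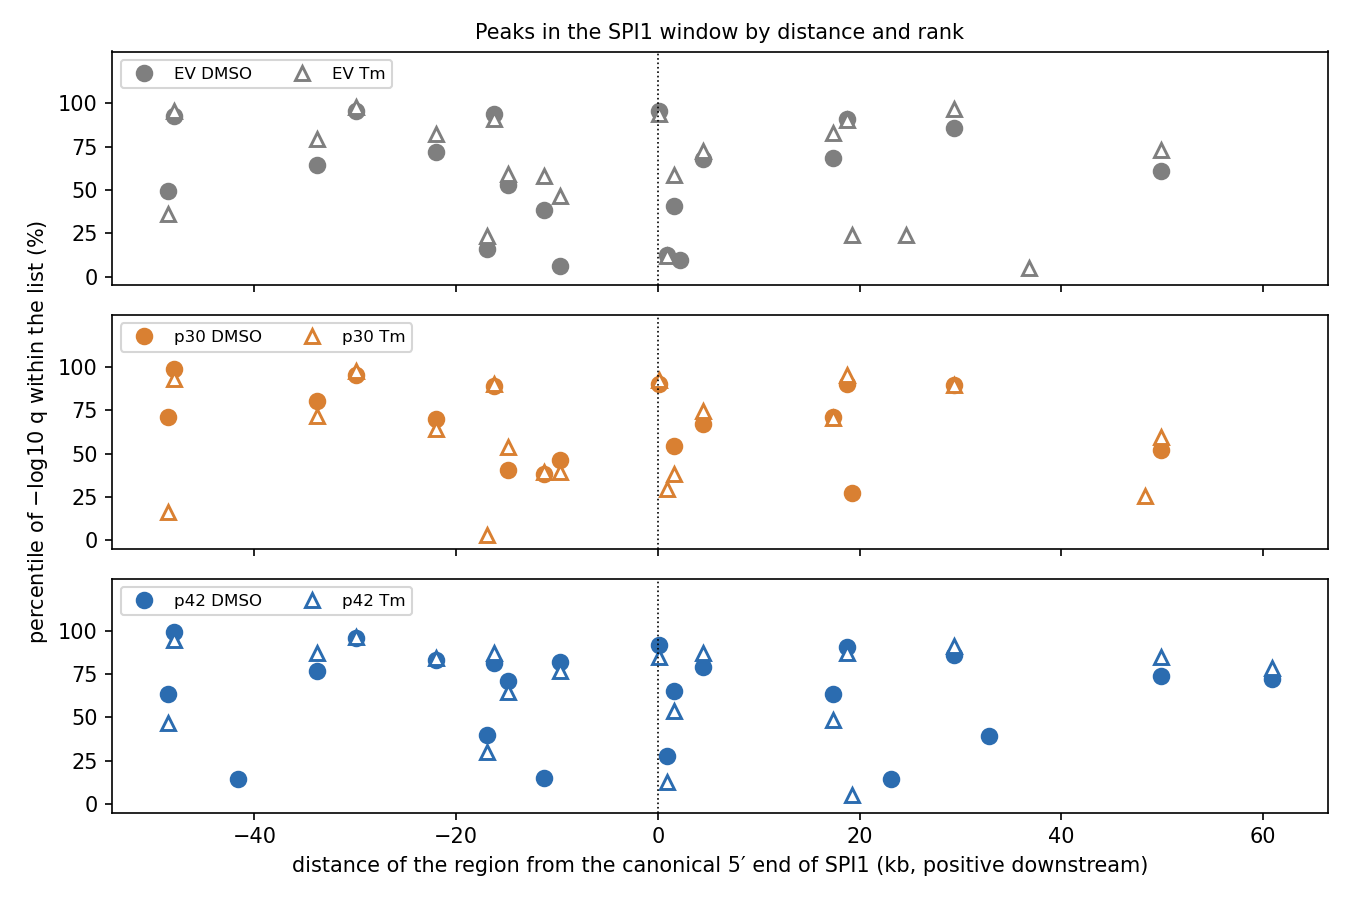
The 3 panels give EV (grey), p30 (orange) and p42 (blue) cells, with each peak of the SPI1 window at its region's distance from the canonical 5′ end (x axis, kb) and its percentile of −log10 q within its list (y axis, %), circles for DMSO and triangles for Tm. The point pair at +60.9 kb is present in the p42 panel alone, and the pair at −9.7 kb is at 81.9 and 76.9 in p42 and no higher than 46.8 in EV and p30 cells.

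Over the 8 genes together, p42 cells in DMSO had a peak in 345 regions (70%), p30 cells in 295 (59.8%) and EV cells in 271 (55%). Among all common regions the shares were 69.3, 56 and 50.4%. Of the 493 regions, 113 (22.9%, 95% Wilson interval 19.4 to 26.8%, which covers the counting of regions only) had a peak in p42 and not in p30 cells in DMSO, against 25% of all common regions. In the other direction there were 63 (12.8%), against 11.8%. Against EV cells, p42 cells had a peak alone in 124 regions (25.2%, all regions 27.6%) and EV cells in 50 (10.1%, all regions 8.74%). Between p30 and EV cells the counts were 68 (13.8%, all regions 14.6%) for p30 and 44 (8.92%, all regions 8.91%) for EV cells. These shares were close to those of the whole set in each direction. When the same number of peaks was taken from each list, the counts for p42 against p30 in DMSO were 57 and 65, so that p42 cells no longer had the larger one. With a depth-scaled threshold they were 105 and 61. All common regions were not counted under these settings, so whether the whole set changes likewise was not tested.

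The counts varied from gene to gene in DMSO. SPI1, RUNX1, IRF8, KLF4 and ZEB2 had 6, 50, 11, 4 and 12 regions with a peak in p42 and not in p30 cells, and 1, 26, 1, 1 and 6 with the reverse. These were 22.2, 24.2, 35.5, 22.2 and 18.5% of their regions, and 3.7, 12.6, 3.23, 5.56 and 9.23% for the reverse. Among all common regions the shares were 25 and 11.8%. For IKZF1 the counts were 14 and 12 (20.6 and 17.6%), for MYB 14 and 11 (29.2 and 22.9%), and for GFI1 2 and 5 (6.9 and 17.2%). With the full lists, GFI1 was the only gene with more regions on the side of p30. With equally long lists, RUNX1 (21 and 28), KLF4 (1 and 3) and MYB (5 and 9) also had more there. GFI1 then had 1 and 5, and ZEB2 8 and 8. No share of all common regions is available for equally long lists, so these shifts cannot be set beside the whole set. With Tm, 70 regions (14.2%, all regions 17.5%) had a peak in p42 and not in p30 cells and 44 (8.92%, all regions 10.1%) had the reverse, and GFI1 then had 5 and 2. Of the 113 regions in DMSO, 28 (24.8%) were found again with Tm, where they made up 40% of the 70, and 6 had the reverse difference. Of the 63 regions with a peak in p30 and not in p42 cells, 14 (22.2%) were found again, 31.8% of the 44. For all common regions the shares found again were 25.7 and 18.1%, and they made up 36.8 and 21.2% of the regions that differed with Tm.

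**Figure D4:**
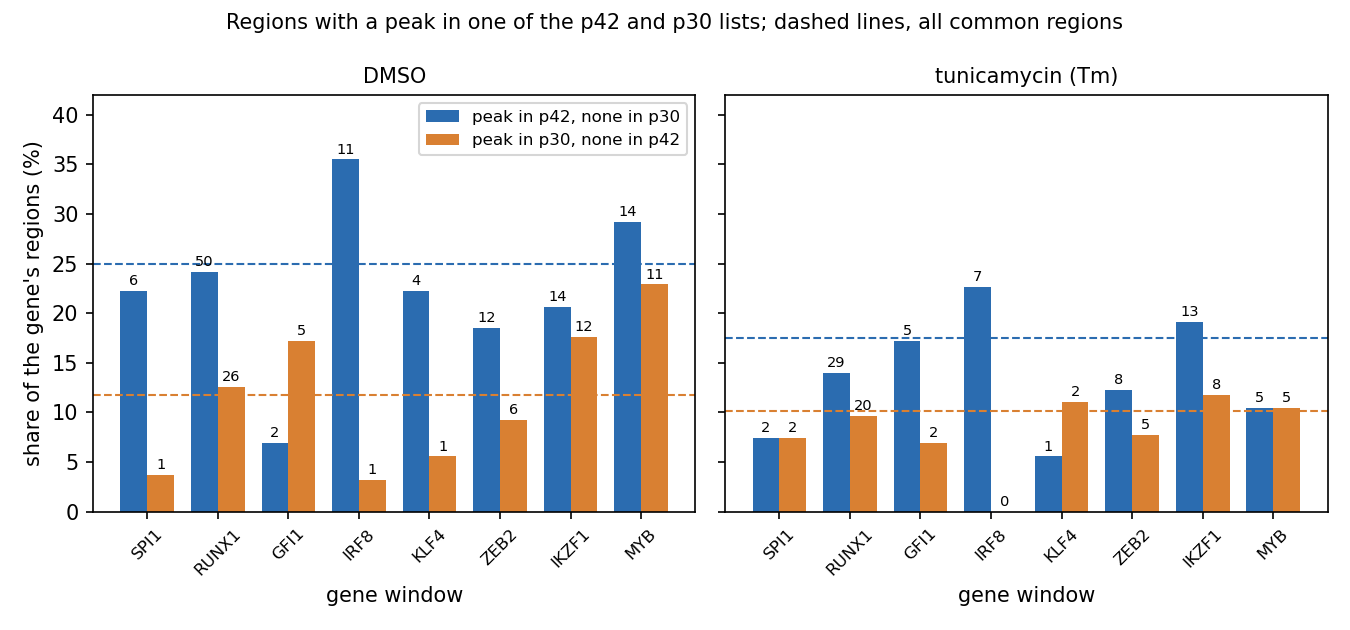
Bars give the share of each gene's regions (y axis, %) that p42 cells had and p30 cells lacked (blue) or the reverse (orange), in DMSO on the left and with Tm on the right, with the count above each bar and dashed lines at the shares of all common regions. IRF8 has the tallest blue bar in DMSO, 11 of 31 regions, and GFI1 has 2 against 5.

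The regions that differed were mostly weak, near the 8 genes as in the whole set. Those with a peak in p42 and not in p30 cells in DMSO had a median percentile of 25.3 and a median peak width of 81 bp in the p42 list, against 63.8 and 212 bp for the 232 regions shared by both. For all common regions these values were 21.0 and 90 bp, against 67.7 and 189 bp. A stricter −log10 q limit of 10 for the list holding the peak left 3 of the 113 and none of the 63, and 3491 of the 88901 and 471 of the 41934 such regions of the whole set. The 3 were chosen after their values were seen. The first is the SPI1 region at +60.9 kb. The second is in an intron of RUNX1 at −442.8 kb (chr21:35491869-35492338), upstream of the canonical start, with 65.9 and 34.0 in p42 cells and no peak elsewhere. The third is in an intron of IKZF1 at +11.6 kb (chr7:50316156-50316447), with C/EBP and RUNX matches, at 68.7 and 38.5 in p42 cells, at 15.0 in EV cells with Tm, and without a peak in p30 cells.

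Where p42 and p30 cells shared a region in DMSO, ranks differed in both directions. The median difference, p42 minus p30, was 0.48 percentile points over the 232 shared regions, of which 125 (53.9%) were higher in p42. It was 3.16 points over the 157320 shared regions of the whole set. The sign was not stable: ranked by fold enrichment the median was −0.55 for the 8 genes and 2.59 for all regions, and with equally long lists −3.15 and −0.49. With Tm it was −0.90 over 215 shared regions, against 2.20 for all. MYB with −5.14 and GFI1 with −6.93 were the lowest with Tm, and SPI1 with 10.94 the highest.

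Single regions differed far more than these medians. Among those with the largest difference in favour of p42 in DMSO was a region downstream of KLF4 at +9.1 kb, with an AP-1 match, at 63.0 and 56.4 in p42 cells, 12.5 and 4.3 in p30 cells, and 39.7 and 3.7 in EV cells. Unscaled for depth, it had 14 and 13 tags in p42 cells and 6 to 9 elsewhere. Downstream of GFI1 at +26.1 kb, also with an AP-1 match, p42 cells were at 55.2 and 29.8, p30 cells in DMSO at 0.1, and the other 3 lists had no peak. A region in RUNX1 at +213.6 kb (chr21:34835563-34835916) was at 75.4 and 56.2 in p42 cells, at 14.3 in p30 cells in DMSO, and without a peak in p30 cells with Tm and in both EV lists. The ZEB2 region at +163.7 kb, whose C/EBP match is shown above, was at 57.3 and 34.0 in p42, 1.7 and 33.2 in p30, and 34.2 and 8.1 in EV cells, so that p42 and p30 cells lay far apart in DMSO but not with Tm.

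Other regions of ZEB2 and RUNX1 ranked lower in p42 cells. In ZEB2 at +2.6 kb (chr2:144517316-144517755), with 2 AP-1 matches, p42 cells were at 39.2 and 40.2, p30 cells at 67.7 and 75.0, and EV cells at 71.2 and 66.5, with no overlap between the p42 lists and the other 4. At +114.6 kb, where RUNX, C/EBP and GATA matches stand together, the p42 places of 55.1 and 30.3 were below the 61.1 and 75.3 of p30 and the 66.2 and 82.2 of EV cells. At +14.4 kb, with a RUNX match, p42 cells in DMSO were at 3.6 against 69.5 in p30 and 46.4 in EV cells, but with Tm p42 cells were at 47.6, p30 cells at 69.7 and EV cells at 66.5. In RUNX1 at −47.9 kb, p42 cells were at 8.7 in DMSO and without a peak with Tm, p30 cells at 68.8 and 56.2, and EV cells at 70.0 and 55.8.

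Sets defined over all 6 lists gave the regions that differed between the transduced cells in the same way in both treatments. Peaks in both p42 lists and in no other list were found in 21 regions (4.26%), against 4.58% of all regions. RUNX1 had 6, IRF8, ZEB2 and IKZF1 had 4 each, SPI1, GFI1 and KLF4 had 1 each, and MYB had 0. The strongest ZEB2 region of this set, near another 5′ end at −1.8 kb, was at 54.8 and 64.2 in p42 cells in DMSO and Tm, and that of IKZF1, at −28.1 kb, at 61.0 and 46.8. The KLF4 region of this set, at −7.4 kb, was at 44.0 and 21.2, and that of GFI1, at +13.0 kb, at 25.4 and 29.2. Peaks in all 4 EV and p30 lists and in neither p42 list were found in 9 regions (1.83%), against 0.802% of all regions. RUNX1 had 6 of these and ZEB2, IKZF1 and MYB 1 each. The RUNX1 region at −8.3 kb (chr21:35057496-35057753) was at 1.9 and 42.4 in EV and 61.1 and 61.2 in p30 cells. The IKZF1 region at −39.6 kb (chr7:50265026-50265134) was at 34.2 and 53.0 in EV and 57.5 and 60.2 in p30 cells. Both hold an AP-1 match, in the sequences given above. The ZEB2 region at +60.0 kb, with a C/EBP match, was at 18.3 and 37.4 in EV and 46.5 and 53.5 in p30 cells, and the MYB region at −35.6 kb, with 2 IRF matches, at 26.8 and 29.5 in EV and 14.9 and 17.0 in p30 cells. Peaks in the p42 and p30 lists and in neither EV list were found in 1 region (0.203%), against 0.626% of all regions. It lies in ZEB2 at +10.4 kb and was at 41.0 and 38.7 in p42 and 25.9 and 17.2 in p30 cells.

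The consensus strings were spread over these sets as follows. C/EBP matches were found in 19 of the 113 regions with a peak in p42 and not in p30 cells in DMSO (16.8%, 95% Wilson interval 11 to 24.8%) and in 3 of the 63 with the reverse (4.76%, 1.63 to 13.1%). Among all common regions the shares were 19.8 and 8.45%. AP-1 matches were found in 11 of the 113 (9.73%, 5.52 to 16.6%) and in 10 of the 63 (15.9%, 8.86 to 26.8%), near the 10.1 and 16.4% of all common regions. Of the 21 regions with peaks in the p42 lists only, 1 held a C/EBP match (4.76%, 0.846 to 22.7%), against 29.2% of all regions of that kind. Of the 9 regions with peaks in all EV and p30 lists only, 3 held an AP-1 match (33.3%, 12.1 to 64.6%), against 29.5%. Over all 493 regions, C/EBP was found in 11.4%, PU.1 in 8.11%, RUNX in 7.71%, AP-1 in 13.8%, IRF in 7.71% and GATA in 13.2%.

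Some regions were strong whatever the isoform. For each gene the region outside its own promoters with the highest mean percentile was, beside those of SPI1 and IRF8, at −891.2 kb in the long RUNX1 body (93.6 to 99.3 over the 6 lists), at +26.8 kb of GFI1 with a PU.1 match (87.2 to 93.3), at +5.4 kb of KLF4 (83.9 to 91.1), at +137.0 kb in ZEB2 (95.0 to 99.8), at +113.6 kb of IKZF1 (97.1 to 98.9) and at −21.6 kb of MYB (85.1 to 95.4). The MYB region lies upstream of the gene, in the direction of its neighbour HBS1L, where enhancers of MYB are known, and holds the IRF match shown above. It had 25 and 26 tags in EV, 21 and 29 in p30, and 22 and 25 in p42 cells.

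With Tm, the number of regions with a peak was higher in EV cells and lower in p30 and p42 cells. In EV cells, 58 regions (11.8%, all regions 11.7%) had a peak with Tm and not in DMSO, and 46 (9.33%, all regions 10.1%) had the reverse. In p30 cells these counts were 33 (6.69%, all regions 8.56%) and 69 (14%, all regions 15.2%). In p42 cells they were 37 (7.51%, all regions 9.08%) and 97 (19.7%, all regions 21.6%). The net change was 12 in EV, −36 in p30 and −60 in p42 cells, in the same directions as for all common regions, while the estimated depth was higher with Tm in EV cells and lower in p30 and p42 cells. With a depth-scaled threshold the net changes were 12, −31 and −47. RUNX1 alone had a net change of −30 in p42 cells. MYB had a net change of 7 in EV cells, where 10 of its 48 regions had a peak with Tm alone and 3 in DMSO alone, of −7 in p30 cells and of −10 in p42 cells.

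**Figure D5:**
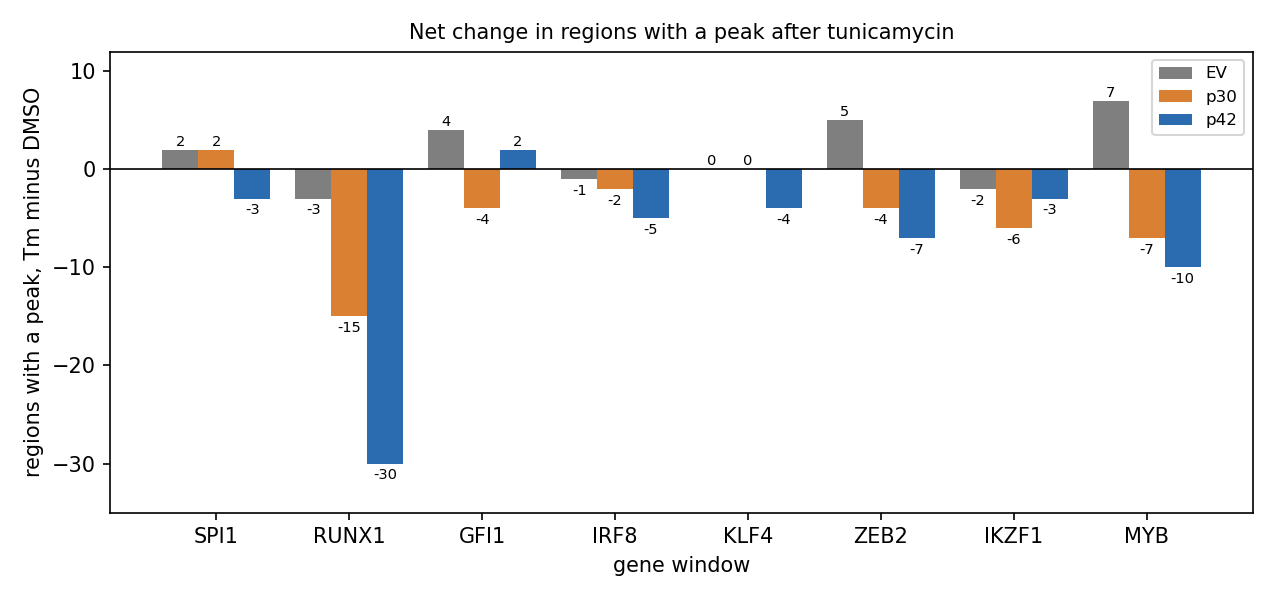
Bars give the number of regions with a peak with Tm minus that in DMSO (y axis) for each gene (x axis) in EV (grey), p30 (orange) and p42 (blue) cells, 1 pooled list each and so without error bars. MYB and ZEB2 are above 0 in EV cells (7 and 5) and below 0 in p30 and p42 cells.

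Few of the regions that came or went with Tm were strong, near the 8 genes as in the whole set. At a −log10 q of at least 10, 1 region of the 8 genes was gained in EV cells, 1 was lost in p42 cells, and none was gained in p42 or p30 cells. In the whole set, 303 of 41537 regions gained in EV cells and 624 of 76675 lost in p42 cells passed this limit. The gained one, at +277.6 kb downstream of RUNX1 (chr21:34771642-34771848), holds C/EBP, AP-1 and GATA matches. It was at 65.0 in EV and 42.9 in p30 cells with Tm, without a peak in both in DMSO, and at 21.0 in DMSO and 62.4 with Tm in p42 cells, so that its place was higher with Tm in all 3. The lost one, upstream of MYB at −18.4 kb, was at 67.7 in p42 cells and 26.9 in p30 cells in DMSO and had no peak with Tm in either, and none in EV cells. Both were chosen after their values were seen.

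For the wider setting, 27 other genes of the same factor families and of the myeloid programme were taken as a list. Their windows held 952 regions. In DMSO, p42 but not p30 cells had a peak in 191 (20.1%) of them, and p30 but not p42 cells in 104 (10.9%). The shares were 22.9 and 12.8% for the 8 genes and 25 and 11.8% for all common regions. Of these 27 genes, 24 had a promoter peak in all 6 lists, RUNX2 in 5, and SPIB and SPIC in none.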

How the data were processed

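ATAC-seq libraries of KO-52 cells (12 libraries, 2 replicates in each of 6 conditions) were processed by the authors. According to the methods, which treat ChIP-seq and ATAC-seq together, reads were trimmed with TrimGalore 0.6.6, aligned to hg38 with Bowtie2 2.4.4, freed of duplicates with Picard, and peaks were called with MACS2 on pooled replicates. Default MACS2 parameters are stated for the ChIP-seq peaks, and settings for the ATAC-seq lists or a shift for the Tn5 cut are not given separately in the sources used here. The deposited fold enrichment is a ratio of summit pileup over local background, each with 1 added. The deposited −log10 p and −log10 q values of a peak are relative to the same background, and the lowest −log10 q was 1.3. None of these is normalised between conditions, so lists were compared by presence and by rank within a list. Where summit tags or fold enrichments are set side by side, they are unscaled and a description only. The authors' read counts per replicate were not analysed here.

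Peaks on the main chromosomes were joined into 355515 common regions where they shared at least 1 bp, and the most significant peak stood for a list. Depth was estimated by solving the deposited fold and p-value for the pileup (whole for 100% of peaks, within 0.001 of −log10 p) and the lowest background, with a genome of 2700000000 bp. The solution recovered 100% of 4864 simulated peaks, and the joining 100% of 4922 simulated sites. Genes, exons and 5′ ends came from GENCODE release 44, and sequences from hg38. No test was run between the pooled lists. The regions named were each gene's promoter regions, its highest-ranking other region, the strongest region of each pattern over the 6 lists, and the 5 largest rank differences in each direction between p42 and p30 in DMSO, and the text says where a region was added after its values were seen. Not all of them are named, and some items are not reported here. The genes, lists and rules were chosen with earlier results of these data known. Alternatives were a stricter threshold, equal list lengths, a depth-scaled threshold, a 50% overlap, rank by fold, and, added after seeing the data, a shorter RUNX1 window and none. Python 3.11.15 was used with numpy 2.4.6, pandas 2.3.3, scipy 1.17.1 and matplotlib 3.10.9.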

Additional observations from a re-analysis of the deposited data

Results flagged for a closer look

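The number of regions near the 8 genes with a peak changed with tunicamycin in opposite directions between the lines, by 12 in EV, −36 in p30 and −60 in p42 cells. For single genes the net changes in EV, p30 and p42 cells were 2, 2 and −3 for SPI1, 4, −4 and 2 for GFI1, 5, −4 and −7 for ZEB2, and 7, −7 and −10 for MYB. Among all common regions the share with a peak moved the same way, from 50.4 to 52% in EV, from 56 to 49.4% in p30 and from 69.3 to 56.8% in p42 cells, beside 55 to 57.4%, 59.8 to 52.5% and 70 to 57.8% for the 8 genes. Each line has 1 pooled list per treatment, so these differences were not tested. The estimated depth moved the same way as the totals, from 22250000 to 25130000 tags in EV, from 26530000 to 23080000 in p30 and from 29980000 to 25440000 in p42 cells. With a depth-scaled threshold the totals were 12, −31 and −47.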

How the results depend on the processing

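All 14 counts of regions with a peak in 1 list and none in another stayed within 1.5 times under a depth-scaled threshold, under a 50% overlap and with the shorter RUNX1 window. With equally long lists, 3 fell further: p42 not p30 in DMSO to 57, p42 not EV to 63, and p42 in DMSO not with Tm to 47, because p42 in DMSO is the longest list. The stricter −log10 q limit of 10 left 3 regions for p42 not p30 in DMSO, 7 for p42 not EV, 2 for p42 not p30 with Tm, 1 each for the losses in p42 and the gains in EV cells with Tm, and 0 for the other 9 counts. Without the RUNX1 window, 286 regions remained. In each pair that follows, one direction comes first and then the other. For p42 against p30 in DMSO the counts were 63 and 37 (22 and 12.9%, all regions 25 and 11.8%). For p42 against EV they were 69 and 26 (24.1 and 9.09%, all regions 27.6 and 8.74%). For p30 against EV they were 42 and 25 (14.7 and 8.74%, all regions 14.6 and 8.91%). For p42 against p30 with Tm they were 41 and 24 (14.3 and 8.39%, all regions 17.5 and 10.1%). The gains and losses with Tm were then 20 and 50 in p42 cells (6.99 and 17.5%, all regions 9.08 and 21.6%). In p30 cells they were 18 and 39 (6.29 and 13.6%, all regions 8.56 and 15.2%). In EV cells they were 39 and 24 (13.6 and 8.39%, all regions 11.7 and 10.1%). The median rank difference between p42 and p30 in DMSO, 0.48, was −0.55 when ranked by fold enrichment and −3.15 with equally long lists, and the cause of the first was not tested. The median of the 44 promoter percentiles was 79.7 and, by fold enrichment, 51.6. The RUNX1 alternatives were chosen after seeing the data. No paired analysis was possible because the lists used here pool the replicates, and for the same reason no replicate was left out. Depth limits which weak regions are called at all.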
